A study of Mus musculus with 6 samples.

Results

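The choroid plexus is the fringe of epithelium that grows from the roof of the brain ventricles and secretes cerebrospinal fluid. Its cells arise from the roof plate and the cortical hem, the dorsal midline of the neural tube, turn on transthyretin as they differentiate, and move ions, water, hormones and vitamins between blood and ventricle through a polarised set of transporters and receptors. The epithelial genes Ttr, Folr1, Kl, Clic6, Aqp1, Enpp2, Slc4a5 and Prlr, were followed in RNA-seq of neural progenitor cells (NPCs) from mouse embryos with and without Ybx1, the gene of a Y-box RNA- and DNA-binding protein. These 8, of 51733 gene symbols in the tables, were chosen by name from results of the same libraries, the control against Ybx1-KO values among them, so their differences between the groups are given as a description, with no test.

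The cells were Sox2-positive NPCs isolated by flow sorting from the neural tubes of C57BL/6 embryos at E13.5, where E counts embryonic days, marked by a Sox2-eGFP knock-in allele (Sox2tm1Hoch). The control group (labelled wildtype, siblings) and the Ybx1-KO group (labelled YBX1KO, homozygous for Ybx1tm1Ley in all cells) had 3 libraries each, and embryos of both sexes were used. Whole neural tubes were the source of every library, so brain and spinal cord, and any epithelium that passed the Sox2 gate, were not separated, and exencephaly, an open brain, is common in the mutants. The libraries are called control 1 to 3 and Ybx1-KO 1 to 3 below. By the numbers in the sample titles, control 1 and 2 share a first number, as do Ybx1-KO 1 and 2, and what that number stands for is not said.

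The libraries differed in depth and composition. Control 1, 2 and 3 held 20841990, 23883542 and 21574427 counts on genes, and Ybx1-KO 1, 2 and 3 held 8483075, 13321952 and 4743279, so a gene with 3 counts, taken here as the smallest amount shown, stood between 0.138 and 0.420 CPM. Levels given as CPM are counts scaled to library size after TMM scaling, which corrects for differences in library composition, and FPKM divides counts by the library's total on genes, without TMM scaling, and by the length of a gene's exons so that genes can be set side by side. Such limits cover counting error only.

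A pair of libraries stood apart from their groups. In Ybx1-KO 3, 59.5% of the read pairs lay outside annotated genes and 7.22% on genes, against at most 46.7% outside and at least 18.0% on genes in the other 5. Summed over 1500 olfactory, vomeronasal and taste receptor genes, which neural progenitors are not known to use, Ybx1-KO 3 held 2825 CPM and the others 23.9 to 98.4 CPM. In control 2, telencephalic and glial genes were low and posterior Hox genes high relative to controls 1 and 3. Dlx1, a homeobox factor of the ventral telencephalon, stood at 93.8 and 206 CPM in controls 1 and 3 and at 17.1 CPM in control 2. For part of the results that rest on either library, values without them are therefore also given.

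Ybx1 itself was lower in all 3 Ybx1-KO libraries, at 124, 54.5 and 9.51 CPM, than in the controls, at 235, 523 and 301 CPM. The counts are per gene and do not separate a deleted part from the rest of the transcript. Progenitor genes were present in every library. Sox2, the gene behind the gate, stood at 17.2, 42.3 and 47.6 CPM in the controls and at 33.0, 49.8 and 23.8 CPM in Ybx1-KO, and all 12 genes of a progenitor list passed the filter on low values.

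Ttr, transthyretin, carries thyroid hormone and retinol-binding protein in the cerebrospinal fluid and is the most abundant transcript of mature choroid epithelium. It stood at 693, 38.0 and 936 CPM in controls 1, 2 and 3 and at 48.1, 55.5 and 19.4 CPM in Ybx1-KO 1, 2 and 3. Controls 1 and 3 were far above every other library, and control 2 fell inside the Ybx1-KO range, so the groups overlapped. The means were 556 ± 465 CPM in control and 41.0 ± 19.0 CPM in Ybx1-KO (SD, n = 3 each), a 13.6-fold lower level, with a fitted log2 fold change of -3.76 ± 0.826 (SE). Within the controls alone, Ttr was 18.2-fold higher in control 1 and 24.6-fold higher in control 3 than in control 2, spreads wider than the difference between the group means. Omitting single libraries moved this value to between -4.31, without control 2, and -3.15, without control 3, and leaving out both control 2 and Ybx1-KO 3, a choice made after seeing the data, gave -4.01. Because these are bulk libraries, fewer epithelial cells and less RNA per epithelial cell cannot be told apart.

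**Figure D1:**
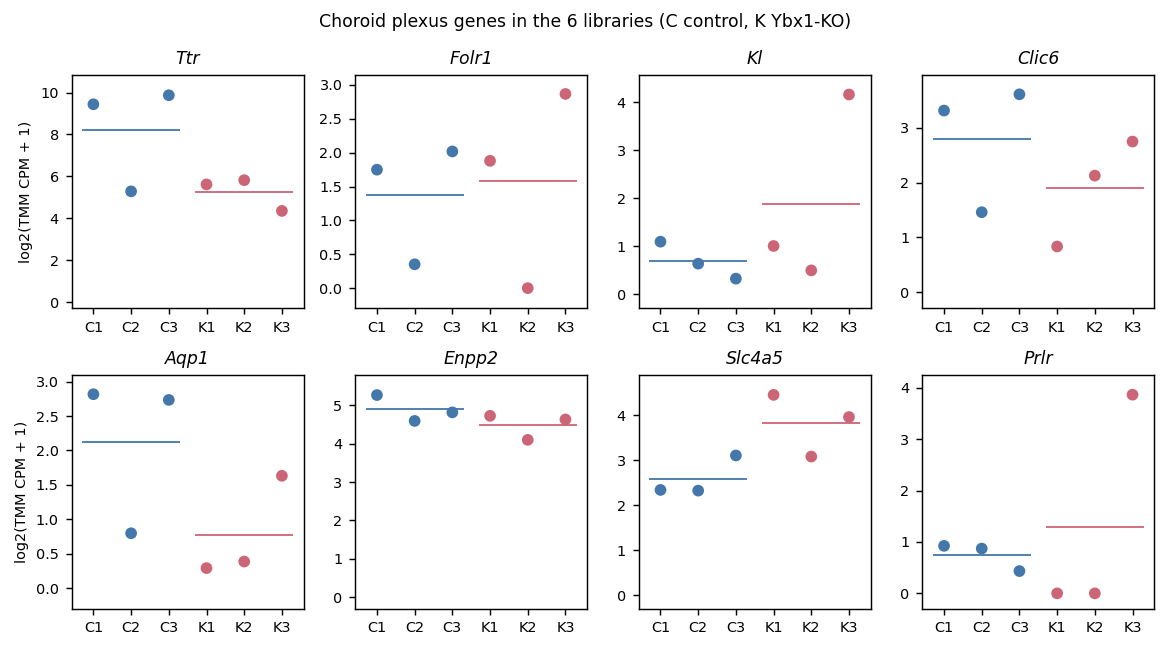
Level of each of the 8 choroid plexus genes in the 6 libraries, as log2(TMM CPM + 1) on the vertical axis, with control libraries (C1 to C3) in blue, Ybx1-KO libraries (K1 to K3) in red and group means as lines. Ttr is high in C1 and C3 alone, Kl and Prlr in K3 alone, and no gene separates the groups completely.

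Clic6 and Aqp1 shared with Ttr a high level in controls 1 and 3 and a low one in control 2. Clic6, a chloride intracellular channel of the epithelium, stood at 8.97, 1.75 and 11.3 CPM in the controls and at 0.781, 3.37 and 5.74 CPM in Ybx1-KO 1, 2 and 3. Its log2 fold change was -1.16 ± 0.857, which became -1.83 without Ybx1-KO 3, -2.31 without control 2 and Ybx1-KO 3, -0.70 without control 3 and -0.78 without Ybx1-KO 1. Aqp1, the water channel of the apical membrane through which fluid is secreted, stood at 6.04, 0.737 and 5.65 CPM in the controls and at 0.223, 0.307 and 2.10 CPM in Ybx1-KO. That is a log2 fold change of -2.25 ± 1.30, which became -3.93 without Ybx1-KO 3 and -4.45 without control 2 and Ybx1-KO 3. For both genes control 2 lay inside the Ybx1-KO range, and in Ybx1-KO 1 and 2 Aqp1 rested on 2 and 3 counts, at or under the amount taken as shown.

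Slc4a5 and Enpp2 were less variable. Slc4a5, the NBCe2 sodium bicarbonate cotransporter, was the member higher in the mutants by the widest margin for its error, at 20.9, 7.46 and 14.5 CPM in Ybx1-KO 1, 2 and 3 against 4.06, 4.01 and 7.60 CPM in the controls. The groups overlapped only through control 3 and Ybx1-KO 2, and the log2 fold change was 1.45 ± 0.553, between 0.97 and 1.83 when each library was left out in turn. Its group means thus differed in the opposite direction to those of Ttr, while within the controls both genes were highest in control 3. With means of 0.851 FPKM in control and 2.84 FPKM in Ybx1-KO, Slc4a5 passed the filter on low values only through Ybx1-KO, so nothing is read from its direction. Enpp2, autotaxin, a secreted enzyme that makes lysophosphatidic acid, stood at 37.5, 23.1 and 27.2 CPM in the controls and at 25.5, 16.1 and 23.8 CPM in Ybx1-KO. Its log2 fold change of -0.43 ± 0.387 was the smallest in size among the 6 tested, and it was -0.67 without control 2 and Ybx1-KO 3 and -0.21 without control 1. Exons of Enpp2 overlap those of an antisense gene, Gm26684, and the strand setting of the counting is not given in the sources used here, so reads of the 2 genes cannot be separated.

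Folr1, Kl and Prlr were low, with Kl and Prlr highest in Ybx1-KO 3 and Folr1 at 0 counts in Ybx1-KO 2. Folr1, the folate receptor that carries the vitamin into the ventricle, stood at 2.36, 0.276 and 3.05 CPM in the controls and at 2.68, 0 and 6.30 CPM in Ybx1-KO 1, 2 and 3. The count of 0 in Ybx1-KO 2 allows a level of up to 0.307 CPM. Its log2 fold change of 0.65 ± 1.44 had no stable sign, since limma-voom gave -0.55 and the fit without control 2 and Ybx1-KO 3 gave -1.04. Kl, alpha-Klotho, the co-receptor for FGF23, reached 16.9 CPM in Ybx1-KO 3 and between 0.250 and 1.13 CPM in the other 5 libraries. Prlr, the prolactin receptor, likewise reached 13.6 CPM in Ybx1-KO 3, against 0.350 to 0.897 CPM in the controls and 0 in Ybx1-KO 1 and 2, where the limits were 0.335 and 0.307 CPM. Exons of Prlr also overlap Gm21973 on the same strand. Neither Kl nor Prlr passed the filter of a mean FPKM above 1 in either group, and with no filter their log2 fold changes were 2.86 ± 1.20 and 2.28 ± 1.34, both resting on Ybx1-KO 3. Just inside the filter was Aqp1, with a mean of 1.53 FPKM in control, and just outside it was Kl, with a mean of 0.960 FPKM in Ybx1-KO.

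Per length of transcript, Ttr was by far the most abundant of the 8. In control its mean was 452 FPKM (29.1 to 731), followed by Enpp2 at 4.86 (3.64 to 6.59), Clic6 at 1.80, Aqp1 at 1.53, Slc4a5 at 0.851, Folr1 at 0.795, Kl at 0.0674 and Prlr at 0.0432 FPKM. The ranges of Ttr, Enpp2 and Clic6 did not touch, whereas every neighbouring pair further down that order overlapped. In Ybx1-KO the mean of Ttr was 34.0 FPKM (24.7 to 42.8) and that of Enpp2 was 4.30 (2.05 to 6.20), with Slc4a5 next at 2.84 FPKM and the remaining 5 between 0.444 and 1.79 FPKM. There the ranges of Ttr and Enpp2 did not touch, and all later neighbours in the order overlapped. The number of members above 1 FPKM was 5, 2 and 6 in controls 1, 2 and 3 and 4, 2 and 8 in Ybx1-KO 1, 2 and 3.

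The level summed over the 8 genes was 754, 69.3 and 991 CPM in the controls and 99.1, 83.2 and 102 CPM in Ybx1-KO. The group means, 605 ± 479 and 94.9 ± 10.3 CPM (SD, n = 3), differed 6.37-fold, a log2 ratio of -2.67. With control 2 and Ybx1-KO 3 left out the means were 873 and 91.2 CPM, 9.57-fold apart. Ttr made up 91.9%, 54.9% and 94.4% of the sum in the controls and 48.5%, 66.7% and 19.0% in Ybx1-KO. Without Ttr the sums of the remaining 7 were 61.0, 31.3 and 55.3 CPM in control and 51.0, 27.7 and 83.0 CPM in Ybx1-KO, with a log2 ratio of 0.13. Over all 6 libraries the groups overlapped in this 7-gene sum. With control 2 and Ybx1-KO 3 left out its means were 58.1 CPM in control and 39.4 CPM in Ybx1-KO, 1.48-fold lower, with both controls above both Ybx1-KO libraries. Control 2, with 69.3 CPM, was below all 3 Ybx1-KO libraries in the 8-gene sum.

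**Figure D2:**
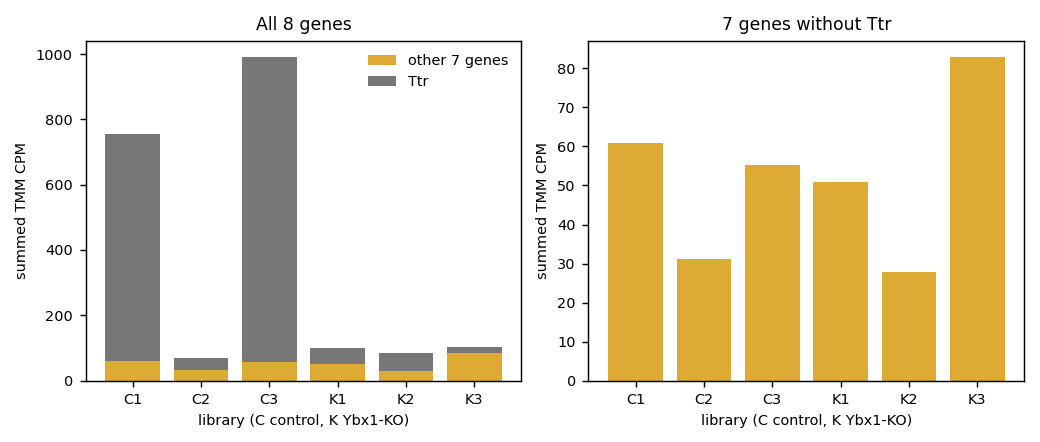
TMM CPM summed per library over all 8 choroid plexus genes (left, Ttr in grey and the other 7 in yellow) and over the 7 genes without Ttr (right). C1 and C3 reach 754 and 991 CPM through Ttr, while the 7 other genes lie between 27.7 and 83.0 CPM with no separation of control (C) from Ybx1-KO (K).

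Nowhere in the transcriptome did a gene pass the call rule (fold change over 1.5, adjusted p under 0.05) with edgeR's quasi-likelihood test over all 6 libraries, that is 0% of 21330 tested genes. The smallest adjusted p was 0.168, and 2394 genes had an unadjusted p below 0.05. Of the 6 members tested, 2 had a positive and 4 a negative log2 fold change, with a median of -0.79, beside 61.3% positive and a median of 0.31 over all genes tested. Slc4a5 and Folr1 passed the filter only through Ybx1-KO, and Aqp1 only through control. Since the list was also drawn up on this same contrast, nothing is read from these counts. In none of the 8 members did all Ybx1-KO libraries lie on one side of all controls, where 4.99% of tested genes had every Ybx1-KO library above and 8.17% every one below.

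The members that were high in Ybx1-KO 3 were set against the background of that library. At the mean rate of the receptor genes in Ybx1-KO 3, 3.67 counts per kilobase of exon, Kl would have 34.2 counts and had 121, and Prlr would have 56.3 and had 97. Observed counts were 1.56 times that rate for Aqp1, 1.72 for Prlr, 2.86 for Clic6, 3.54 for Kl, 4.88 for Slc4a5, 5.34 for Folr1, 8.02 for Enpp2 and 31.9 for Ttr. The level of Aqp1 in Ybx1-KO 3 was reached or passed by 25.1% of the receptor genes and that of Prlr by 22.5%, while Ttr was passed by none. For Clic6 the share was 10.3%, for Kl 6.07%, for Slc4a5 2.53%, for Folr1 2% and for Enpp2 0.467%. In Ybx1-KO 1 and 2 the same rate was 0.0389 and 0.0505 counts per kilobase, and each member detected there stood at least 8.49 times above it. The high values of Prlr and the residual Aqp1 in Ybx1-KO 3 were therefore not distinguishable from the higher receptor genes of that library. How far the same background enters the other members in that library was not tested.

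**Figure D3:**
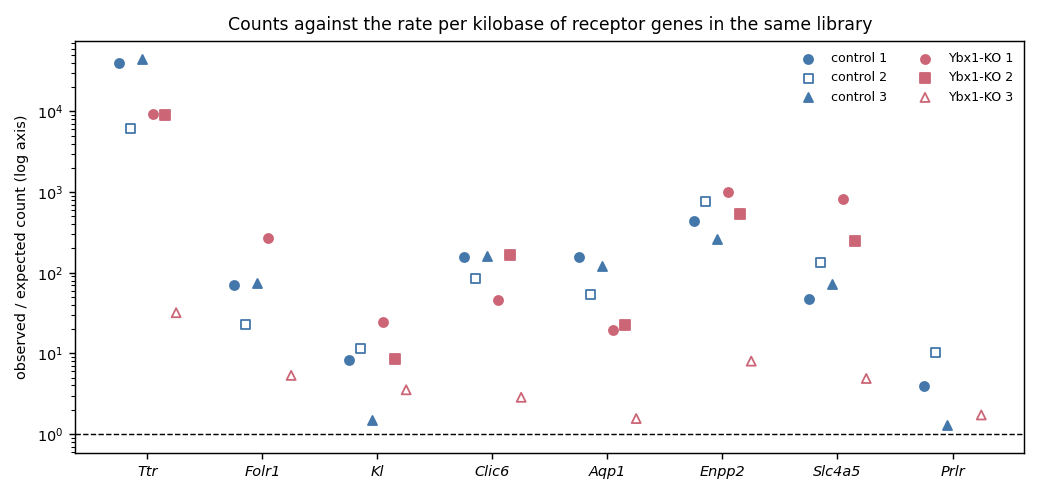
Count of each member divided by the count it would have at the mean rate per kilobase of 1500 receptor genes in the same library, on a log axis, with a dashed line at 1 and zero counts not drawn. Members in Ybx1-KO 3 (open triangles) lie between 1.56 and 31.9, while Ttr exceeds 6137 in every other library.

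Promoter windows show what sequence the members share at their starts. Windows of 300 bases, from 250 before a gene's start, were found in RefSeq (GRCm38.p6) for Kl, Aqp1, Slc4a5 and Prlr, the last with 3 starts. The RefSeq start of Kl and the first of Prlr equal the GENCODE gene starts, that of Aqp1 (55336299) lies 133 bases before the GENCODE start, and that of Slc4a5 (83237375) is an internal start, 17547 bases inside the GENCODE gene. Ttr, Folr1, Clic6 and Enpp2 are named only. Each window was searched on both strands for TAATCC, the core bound by OTX proteins, for TGTTTAC, a forkhead core, and for GTTGCC, part of the site of RFX factors of ciliated cells. These occur in 7.06%, 3.65% and 12.5% of 32851 RefSeq promoter windows of the same length. Aqp1 held GTTGCC, at -111 relative to its RefSeq start, the second of the Prlr starts held TGTTTAC, and the windows of Kl and Slc4a5 held none of the 3. The windows of Aqp1, with a negative log2 fold change, and of Slc4a5, with a positive one, are shown. Aqp1 passed the filter on low values only through control and Slc4a5 only through Ybx1-KO, so nothing is read from that difference in direction. Both genes are on the plus strand, and capitals mark the match.
Aqp1 promoter, chr6:55336049-55336348: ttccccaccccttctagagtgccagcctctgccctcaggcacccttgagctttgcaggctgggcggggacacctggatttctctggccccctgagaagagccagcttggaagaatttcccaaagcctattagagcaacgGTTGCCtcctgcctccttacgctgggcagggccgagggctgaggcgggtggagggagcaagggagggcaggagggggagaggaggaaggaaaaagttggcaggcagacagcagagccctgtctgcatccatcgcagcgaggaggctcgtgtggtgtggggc
Slc4a5 promoter, chr6:83237125-83237424: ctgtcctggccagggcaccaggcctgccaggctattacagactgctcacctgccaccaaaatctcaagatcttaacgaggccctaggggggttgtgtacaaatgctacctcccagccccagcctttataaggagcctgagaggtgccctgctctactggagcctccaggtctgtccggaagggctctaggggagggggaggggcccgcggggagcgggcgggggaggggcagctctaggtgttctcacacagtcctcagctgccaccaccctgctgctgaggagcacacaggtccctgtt

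The windows of Kl, Aqp1, Slc4a5 and Prlr therefore held no motif in common among those searched, and a missing match says only that these letters are not in the window.

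Other genes of the choroid epithelium were taken from a list of 32 that excludes the 8 members. Of these, 19 passed the filter, 10 with a positive and 9 with a negative log2 fold change (median 0.23). Over all genes tested 61.3% were positive, with a median of 0.31. Over all 6 libraries 0 of the 19 were called by edgeR. Lrp2, Mfrp, Steap1 and Trpv4 passed the filter only through Ybx1-KO, and Kcne2, Slc4a10 and 1500015O10Rik only through control. Nothing is read from their direction in these counts. With a mean FPKM above 1 in both groups the median was 0.11. The summed level of the 32 was 695, 532 and 650 CPM in control and 815, 803 and 576 CPM in Ybx1-KO, with Igf2, a growth factor that many embryonic tissues make, accounting for 34.0% of it. The list as a whole therefore did not follow Ttr. Without control 2 and Ybx1-KO 3 its median was -0.31, from 8 positive and 10 negative of 18 tested. Of all 15447 genes tested there 7536 were positive, with a median of -0.02. The median over all genes thus moved as well, so no direction is read from the list.

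Of these genes, 4 were lower in Ybx1-KO at an unadjusted p below 0.05, as were 4.27% of all tested genes, and all 4 missed the adjusted threshold over all 6 libraries with edgeR's quasi-likelihood test. Kcne2 and 1500015O10Rik, at 0.848 and 0.794 FPKM in Ybx1-KO, passed the filter only through control, so nothing is read from their direction. Kcne2, a potassium channel subunit of the apical membrane, stood at 8.64, 1.29 and 10.6 CPM in the controls and at 0.112, 1.94 and 1.96 CPM in Ybx1-KO (log2 fold change -2.35 ± 1.07, edgeR adjusted p = 0.443). Sostdc1, a secreted BMP and Wnt inhibitor, stood at 8.83, 2.03 and 16.5 CPM in the controls and at 0.112, 3.99 and 1.68 CPM in Ybx1-KO (-2.23 ± 0.979, edgeR adjusted p = 0.443). Without Ybx1-KO 2, the mutant with the most Sostdc1, its value was -3.49 and edgeR called it (adjusted p = 0.0252), as it did 2.98% of the genes tested there, and without control 3 it was -1.48. The gene 1500015O10Rik, which encodes augurin, stood at 5.67, 0.599 and 6.30 CPM and at 0.223, 0.307 and 1.12 CPM (-2.93 ± 1.34, edgeR adjusted p = 0.443). Its value lay between -3.94 and -2.50 when each library was left out in turn. All 3 shared with Ttr, Clic6 and Aqp1 the high level in controls 1 and 3 and the low level in control 2. Slc31a1, a copper importer found in many tissues, was the exception, at 54.6, 53.3 and 67.3 CPM in the controls and 18.5, 50.3 and 26.0 CPM in Ybx1-KO (-0.88 ± 0.413, edgeR adjusted p = 0.444). Leaving out each library in turn gave between -1.48 and -0.66.

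On the other side, 6.96% of all tested genes were higher in Ybx1-KO at an unadjusted p below 0.05, Lrp2 of the list among them. At 0.746 FPKM in control, Lrp2 passed the filter only through Ybx1-KO, so nothing is read from its direction. Lrp2, megalin, an endocytic receptor that neuroepithelium also uses, stood at 11.1, 21.9 and 6.75 CPM and at 31.7, 30.9 and 48.3 CPM (1.48 ± 0.455, edgeR adjusted p = 0.377), and edgeR called it without Ybx1-KO 1 (adjusted p = 0.0292), beside 2.86% of the genes tested there. The more abundant Igfbp2 and Slc29a4 had overlapping groups, with log2 fold changes of 0.84 ± 0.454 and 0.30 ± 0.411.

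**Figure D4:**
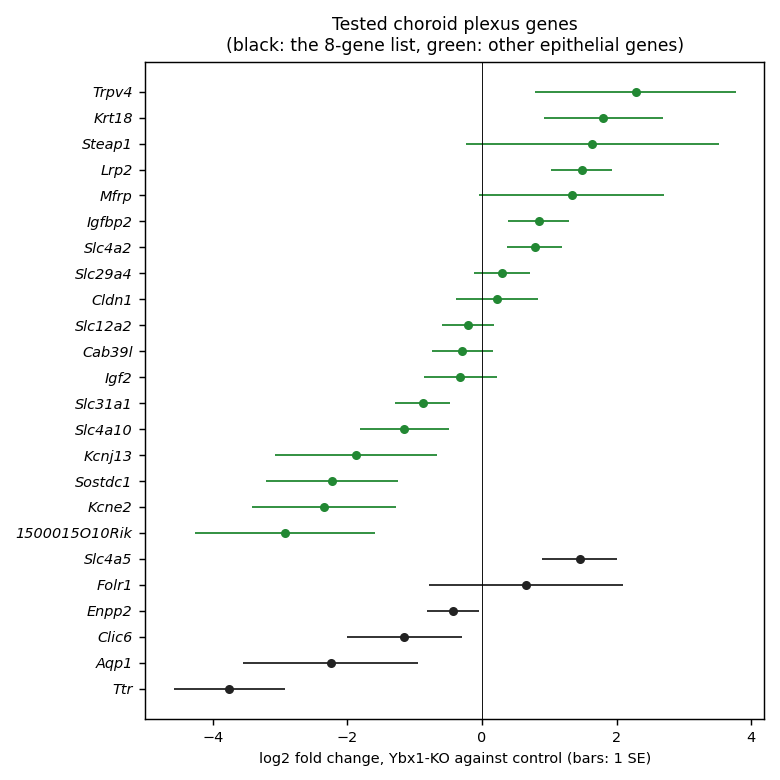
Log2 fold change of Ybx1-KO against control from edgeR, with bars of 1 SE, for the 6 tested members (black) and 18 of the 19 tested genes of the other choroid list (green). Values run from -3.76 for Ttr to 2.28 for Trpv4, on both sides of 0 in both lists. Trpv4 rests on Ybx1-KO 3, at 12.2 CPM there against 0.335 and 0.307 CPM in Ybx1-KO 1 and 2.

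Factors of the roof plate and hem, from which the epithelium arises, were set beside the differentiated genes. They do not single out roof plate, since the study used Lmx1a and Msx1 as midbrain and hindbrain lineage markers. Of 16 such genes 12 were tested, 8 of them with a higher fitted level in Ybx1-KO (median log2 fold change 1.13), where 61.3% of all tested genes were higher. At an unadjusted p below 0.05 there were 6, where 6.96% of all tested genes were higher, and edgeR called 0 of the 12 over all 6 libraries with the filter on low values. Lmx1a, which specifies roof plate, stood at 5.29, 9.72 and 4.60 CPM in the controls and at 63.7, 12.4 and 13.0 CPM in Ybx1-KO (2.18 ± 0.602, edgeR adjusted p = 0.315). Its value was 0.88 without Ybx1-KO 1, the library with the most Lmx1a, and 2.53 without Ybx1-KO 2, where edgeR called it (adjusted p = 0.000112). Msx1 and Msx2, BMP-responsive homeobox genes, had log2 fold changes of 1.88 ± 0.586 and 1.92 ± 0.582, and Wnt1, the dorsal midline ligand, one of 3.52 ± 1.01, between 2.53 and 4.03 with each library left out in turn. In these 4 of the 12 the Ybx1-KO libraries lay above all controls, as they did in 4.99% of all tested genes. Gdf7 and Rspo1, secreted signals of the same midline, had log2 fold changes of 3.07 ± 1.41 and 1.80 ± 0.627 with overlapping groups, and that of Gdf7 was 1.43 without Ybx1-KO 2. Without Ybx1-KO 1 edgeR called Wnt1 (adjusted p = 5.32e-06) and Gdf7 (adjusted p = 0.0490), and with no filter on low values over all 6 libraries it called Wnt1 (adjusted p = 0.00223) and Lmx1a (adjusted p = 0.0179), beside 0.451% of all genes. Otx2, which the choroid epithelium keeps into adult life, stood at 86.0, 81.8 and 65.2 CPM in the controls and at 51.1, 73.9 and 39.5 CPM in Ybx1-KO (-0.50 ± 0.382, edgeR adjusted p = 0.535). The summed level of the 16 was 194, 203 and 175.02 CPM in control and 269, 273 and 165 CPM in Ybx1-KO. The median of the list depended on single libraries, at 0.08 without Ybx1-KO 2 and 1.44 without Ybx1-KO 3. The filter moved it too, to 0.37 with a mean FPKM above 1 in both groups, 0.45 with no filter and 0.63 with filterByExpr. Wnt1 and Gdf7, at 0.463 and 0.352 FPKM in control, passed the main filter only through Ybx1-KO, so nothing is read from their direction in these counts.

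Genes of multiciliated cells, a programme that the epithelium shares with ependyma, did not separate the groups as a list. Of 20 genes 14 were tested, 9 of them with a higher fitted level in Ybx1-KO (median log2 fold change 0.50), beside 61.3% of all tested genes. Mcidas, Myb, Deup1, Rfx2, Ccdc153 and Dnaic1 passed the filter only through Ybx1-KO, and Pifo only through control. Nothing is read from their direction in these counts. The summed level of the 20 was 219, 253 and 177 CPM in control and 170, 262 and 238 CPM in Ybx1-KO. The median log2 fold change was 0.98 without control 3, 0.35 without Ybx1-KO 2 and 0.10 with a mean FPKM above 1 in both groups. Foxj1, the master factor of motile cilia, had a log2 fold change of -0.08 ± 0.722, and Rfx3, which makes up 44.2% of the sum, one of -0.69 ± 0.437. Tppp3, a tubulin-binding protein, was higher in every Ybx1-KO library, at 56.2, 31.4 and 30.8 CPM against 9.73, 16.7 and 17.0 CPM (1.45 ± 0.412, edgeR adjusted p = 0.350). DESeq2 called it (adjusted p = 0.0386), as it did 1% of all tested genes, and so did edgeR without Ybx1-KO 2 (adjusted p = 0.0422). Ccdc153 was detected at 13.9 CPM in Ybx1-KO 3 and at no more than 0.189 CPM elsewhere.

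Genes that mark late or early progenitors were also uneven across the libraries, all of which are labelled with the same embryonic day. Late radial glia and glial genes summed to 1697, 461 and 1443 CPM in controls 1, 2 and 3 and to 266, 407 and 224 CPM in Ybx1-KO, with all Ybx1-KO libraries below all controls. All 12 tested genes of that list of 15 had a negative log2 fold change (median -1.93), where 61.3% of all tested genes had a positive one. At an unadjusted p below 0.05 there were 9, as were 4.27% of all tested genes on that side. Aldoc, Tnc and Olig1, at 0.589, 0.801 and 0.932 FPKM in Ybx1-KO, passed the filter only through control, so nothing is read from their direction. With a mean FPKM above 1 in both groups the median was -1.68. Nfix, a nuclear factor I gene of late progenitors, stood at 180, 19.1 and 269 CPM in the controls and at 10.9, 16.6 and 12.9 CPM in Ybx1-KO (-3.54 ± 0.680, edgeR adjusted p = 0.168). Nfib (-3.02 ± 0.60), Aldoc (-4.07 ± 0.837) and Slc1a3 (-1.78 ± 0.424) were low in the same libraries. When each library was left out in turn, Nfix lay between -4.06 and -2.88 and Aldoc between -4.96 and -3.38. With control 2 and Ybx1-KO 3 left out, all 12 tested had a negative value, as had 7911 of all 15447 genes tested there. Of the 12, 5 were called by edgeR, Aldoc and Tnc among them, beside 0.751% of all genes tested. DESeq2 over all 6 libraries called 7 of the 12, again with Aldoc and Tnc, beside 1% of all genes tested.

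Conversely, early neuroepithelial genes summed to 201, 490 and 192 CPM in the controls and 442, 698 and 415 CPM in Ybx1-KO, with control 2 inside the Ybx1-KO range. Hmga2, a chromatin protein of young progenitors, stood at 13.7, 76.9 and 14.5 CPM in the controls and at 56.0, 175.2 and 70.1 CPM in Ybx1-KO (1.52 ± 0.616, edgeR adjusted p = 0.443). Its value was 2.84 without control 2 (edgeR adjusted p = 0.0232) and 3.00 without control 2 and Ybx1-KO 3 (edgeR adjusted p = 0.0199), called both times, and 0.76 without Ybx1-KO 2. It was also called without Ybx1-KO 1 (1.76, edgeR adjusted p = 0.0153). The controls with high Ttr were thus those with high late-stage and low early-stage genes. The part of stage in the level of Ttr was not tested, and stage and genotype cannot be told apart in these 6 libraries.

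Genes that mark regions were uneven in the same libraries. Telencephalic factors summed to 427, 149 and 697 CPM in the controls and to 315, 255 and 80.6 CPM in Ybx1-KO, and Dlx1 was at 22.8, 34.3 and 10.9 CPM in Ybx1-KO 1, 2 and 3 (-2.21 ± 0.653, edgeR adjusted p = 0.359). edgeR called Dlx1 without control 2 (adjusted p = 0.0149), beside 0.339% of the genes tested there, without control 2 and Ybx1-KO 3 (adjusted p = 0.0374), and without Ybx1-KO 1 or 2, and its value was -1.28 without control 3. Of the 8 telencephalic genes 6 had a negative and 2 a positive log2 fold change (median -0.74), where 61.3% of all tested genes had a positive one. A gene among the 6 passed the filter only through control, so nothing is read from its direction. The median was -0.22 without control 3 and -1.26 without Ybx1-KO 2. Six3, a factor of the anterior forebrain, stood at 6.38, 11.5 and 19.1 CPM in the controls and at 55.5, 31.9 and 12.2 CPM in Ybx1-KO (1.43 ± 0.529, edgeR adjusted p = 0.432), and its value was 0.80 without Ybx1-KO 1. Posterior Hox genes, of the hindbrain and spinal cord, summed to 50.4, 436 and 128 CPM in the controls and to 556, 528 and 204 CPM in Ybx1-KO. All 10 had a positive log2 fold change, as did 61.3% of all tested genes. With control 2 and Ybx1-KO 3 left out edgeR called Hoxb5 (adjusted p = 0.0261) and Hoxc6 (adjusted p = 0.00397), beside 0.751% of all genes tested. Control 2, the control with low Ttr, therefore also had the lowest telencephalic and the highest posterior level of its group. What part the share of forebrain in a library has in the choroid genes was not tested.

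**Figure D5:**
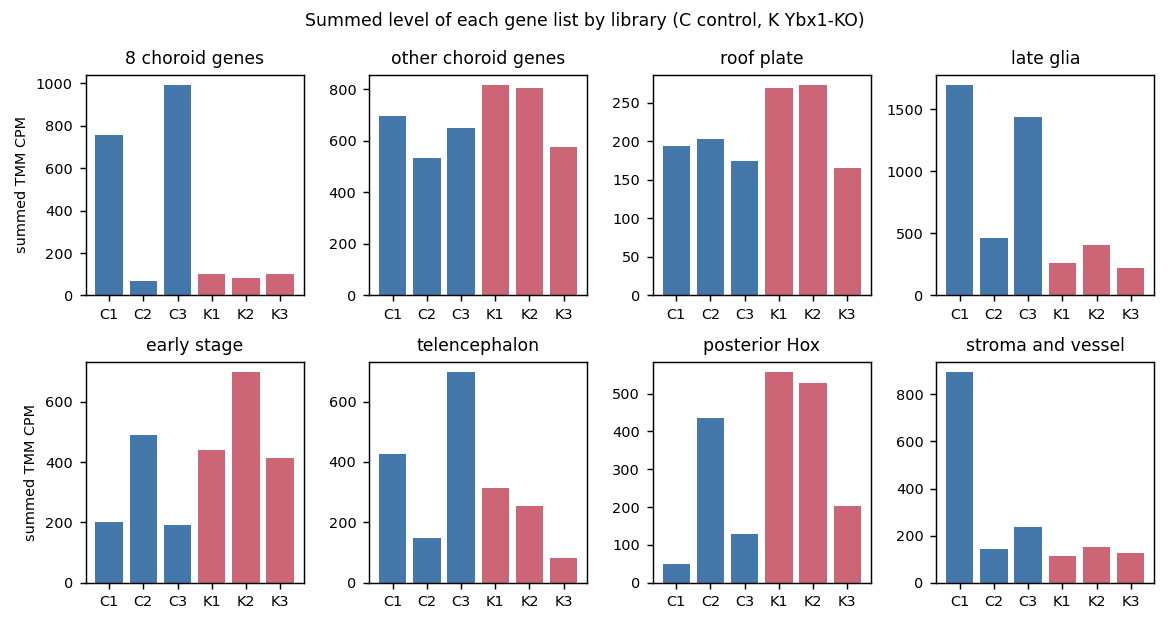
TMM CPM summed over each gene list in control (C, blue) and Ybx1-KO (K, red) libraries, with a separate axis from 0 in every panel. C1 and C3 are high for the 8 choroid genes, late glia and telencephalon, while C2 is nearer to the Ybx1-KO libraries in those lists and in posterior Hox genes.

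Cell types other than choroid epithelium that can hold the same transcripts were measured too. Ttr is also a product of liver and yolk sac endoderm. Of the genes that define these, Alb was at 0, 1.11 and 0.05002 CPM in controls 1, 2 and 3 and Afp at 0.283, 0.968 and 0.300 CPM. The list of 13 endoderm and liver genes summed to 4.91, 8.75 and 6.60 CPM in control and to 11.6, 7.46 and 68.1 CPM in Ybx1-KO, led by Cubn, with 2 to 4 genes at 0 in each control. All 3 of its genes that passed the filter did so only through Ybx1-KO, so nothing is read from their positive log2 fold changes. Fgb, at 0, 1 and 130 counts in Ybx1-KO 1, 2 and 3, and Ahsg, at 0, 0 and 48, rested on Ybx1-KO 3. Without that library 1 gene of the list was tested. Fibroblast, meningeal and vessel genes, which could come with any choroid stroma that passed the Sox2 gate, summed to 893, 145 and 237 CPM in control and 115, 151 and 124 CPM in Ybx1-KO, led by Col3a1. Of 14 such genes 9 were tested, 8 of them with a negative log2 fold change, where 61.3% of all tested genes had a positive one. With edgeR 5 were lower at an unadjusted p below 0.05, as were 4.27% of all tested genes. Dcn, at 0.609 FPKM in Ybx1-KO, passed the filter only through control, and Cldn5 only through Ybx1-KO, so nothing is read from their direction. None of the 14 was at 0 in any library. Their median, -1.58, was -0.61 without control 1, -0.78 without Ybx1-KO 1 and -2.42 without control 2 and Ybx1-KO 3. DESeq2 over all 6 libraries called Dcn and Lum, beside 1% of all genes tested. Without control 2 and Ybx1-KO 3 edgeR called Dcn (adjusted p = 0.0202), beside 0.751% of all genes tested. Their part in the level of the choroid genes was not tested.

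By a fixed rule, the genes whose pattern was most like the mean of the 8 members, as a correlation of log2(CPM + 1) over the 6 libraries, were Dph5 (r = 0.979), Rpain, Gm22556, Dtwd1, Apoc1, Ly6g6e, 9430069I07Rik, Fosl2, Mgp and 1700110K17Rik (r = 0.964). In all, 81 of 21324 genes outside the members had r above 0.9. That mean pattern was high in controls 1 and 3 and in Ybx1-KO 3, the library with the receptor gene background, and low in the other 3, so it differed from the pattern of Ttr. Of the 10, 5 stayed in the first 10 with a pseudocount of 0.1 and 3 with a pseudocount of 5. None of them was in any of the choroid lists.

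In the genome (GRCm38), Ttr lies on chromosome 18 from 20665280 to 20674321 on the plus strand, and Folr1 on chromosome 7 from 101858331 to 101870788 on the minus strand. Kl lies on chromosome 5 from 150952607 to 150993817, Clic6 on chromosome 16 from 92485736 to 92541243, and Enpp2 on chromosome 15 from 54838901 to 54952892. Aqp1 and Slc4a5 share chromosome 6, at 55336432 to 55348555 and 83219828 to 83304945, and Prlr shares chromosome 15 with Enpp2, from 10177238 to 10349180. All 8 are protein-coding, and apart from the overlaps of Enpp2 and Prlr named above none of their exons overlaps another annotated gene.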

How the data were processed

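The authors counted read pairs of stranded total RNA libraries on GENCODE genes with HTSeq (0.6.1p1 in the submitters' processing notes, which name mm10 and GRCm38.p5) and deposited a table of raw, unpooled counts by gene symbol for each library. The aligner and the strand setting of the counting are not given in the sources used here. Sequencing was on either of 2 HiSeq models, and which library ran on which is not said, so such a batch could not be tested. The methods speak in general of biologically independent replicates but do not say whether each library is a separate embryo, so p-values measure the spread between these samples, which may be partly technical.

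Counts were scaled by TMM and tested with edgeR 4.0.16 (quasi-likelihood, R 4.3.3, Benjamini-Hochberg over all tested genes). Genes were tested at a mean FPKM above 1 in either group and called where the fold change was over 1.5 and the adjusted p under 0.05. The study itself used limma-voom, run here as an alternative with limma 3.58.1, as was DESeq2 1.42.0. Exon lengths and coordinates came from GENCODE M21, matching 47624 symbols directly, 359 by an older symbol and 3750 not at all. The counter's tallies of unassigned read pairs stayed out of library sizes and tests, and 7.22% to 24.7% of read pairs fell on genes. The fits were tested on simulated data, with an outcome that is not reported here and on which no result rests. No pair of libraries agreed within sampling noise.

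The members and lists were chosen with earlier results of these data known. Genes are named by rule, being the 8 members, Ybx1, in each list the 4 highest by mean FPKM and those at an unadjusted p below 0.05, of which the main ones are described (some items are not reported here), and the 10 most like the members' mean. Alb, Afp, Sox2 and Trpv4 are named beside these, after their values were seen. Further genes are named only because they passed the filter through a single group. No replicate number pairs a control with a Ybx1-KO library. Other scalings, filters and tests, and leaving out each library, were run as alternatives.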

Additional observations from a re-analysis of the deposited data

How the results depend on the processing

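The number of genes called was 0 over all 6 libraries with RLE, upper quartile or total-count scaling, with filterByExpr, the CPM filter, the FPKM filter in both groups or protein-coding genes alone, and with limma-voom. It was 193 without a filter, 214 with DESeq2, 116 with control 2 and Ybx1-KO 3 both left out, and between 0 and 725 when each library was left out in turn (73 without control 2, 696 without Ybx1-KO 1 and 725 without Ybx1-KO 2). The cause was not tested. The log2 ratio of the summed members was between -3.20 and -2.11 with each library left out and 0.13 when Ttr was not summed. The median of the tested members was -0.79, 0.18 with filterByExpr, which also admits Kl and Prlr, and between -1.83 and -0.32 with each library left out. The median of the other choroid list was between -0.21 and 0.27 with each library left out. No log2 fold change of a gene named for its unadjusted p changed sign in any setting run. The median over all genes tested, 0.31, ranged from -0.02 without control 2 and Ybx1-KO 3 to 0.70 without a filter. No paired analysis was possible because the groups share no replicate number. Depth limits Folr1 in Ybx1-KO 2 and Prlr in Ybx1-KO 1 and 2, with 0 counts, and Aqp1 in Ybx1-KO 1 and 2, with 2 and 3.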

Other observations

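Globin genes were also uneven between the libraries. The adult beta-globin gene Hbb-bs stood at 593, 16.1 and 188 CPM in controls 1, 2 and 3 and at 20.0, 6.23 and 4.90 CPM in Ybx1-KO (log2 fold change -4.67 ± 0.932, edgeR adjusted p = 0.168), and Hbb-bt at 229, 12.2 and 97.2 CPM and 28.7, 2.15 and 4.62 CPM. Hbb-bs was called by DESeq2 over all 6 libraries (adjusted p = 0.0299), beside 1% of all genes tested. It was called by edgeR without control 2 (adjusted p = 0.000456), beside 0.339%, and without control 2 and Ybx1-KO 3 (adjusted p = 0.00397), beside 0.751%. When each library was left out in turn its log2 fold change lay between -5.63 and -3.31. The embryonic Hbb-bh1 was at 0.803, 16.2 and 0.700 CPM in the controls and at 51.6, 20.3 and 9.93 CPM in Ybx1-KO. Control 2 thus had less of both adult globins and more of this embryonic globin than controls 1 and 3. Blood genes as a list summed to 1243, 1003 and 529 CPM in control and to 1229, 510 and 247 CPM in Ybx1-KO, with Hbb-y the most abundant, and its order of libraries was not that of Ttr.

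Genes highest in the same libraries as Ttr, looked up after its values were seen, included Bhlhe22 (39.4, 8.62 and 46.0 CPM in the controls and 10.4, 10.8 and 5.88 CPM in Ybx1-KO) and Neurod2 (197, 19.3 and 255 CPM and 8.37, 22.2 and 5.46 CPM), both transcription factors of forebrain neurons. As with Ttr, controls 1 and 3 lay far above the other 4 libraries in both genes.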
